A study of Mus musculus with 12 samples.

Results

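The genes described here mark myeloid cells, the branch of blood cells that holds macrophages, monocytes, neutrophils and dendritic cells, or carry their signals. They were taken as a fixed list of 37 gene symbols, all found among the 53647 genes of the deposited count files by Ensembl identifier. The list was drawn up with earlier results of these data known, but no measured value enters the rule. It covers transcription factors, surface receptors, adaptors, kinases, integrins, actin regulators, subunits of the phagocyte NADPH oxidase and lysosomal proteins.

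RNA of mouse cell lines was sequenced in 12 libraries, which by label form 6 groups with preparations 1 and 2 in each. DC2.4, an immortalized dendritic cell line, and 4T1, a breast cancer line, both labelled wild type, received mRNA for uniSTING, a mimic of the innate immune adaptor STING, or for EGFP (Mock). Further DC2.4 cells were kept for 24 h with vesicles that 4T1 cells released after uniSTING mRNA (EXOuniSTING) or Mock mRNA (EXOmock). The series asks how uniSTING alters type I interferon signalling and which genes of DC2.4 cells respond to the vesicles. The mRNA was carried by a transfection reagent or by lipid nanoparticles, and the labels give neither the carrier used for each library nor the time. Each line is a long-term culture, so a library stands for that line and not for primary cells, and separate cultures behind the preparations are not stated. P-values therefore reflect how far these libraries vary, and that variation may be technical.

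In myeloid cells, the transcription factor PU.1, encoded by Spi1, switches on many of the receptors that define the lineage. Activating Fc receptors have no signalling motif of their own in their ligand-binding chain and pass signals through the adaptor chain encoded by Fcer1g. Tyrobp encodes a like adaptor used by other receptors. The ITAM motifs of both adaptors are phosphorylated by Src family kinases such as Lyn and then bind the kinase Syk. Syk acts through Lcp2, Btk, Plcg2 and Vav1 on calcium and actin, and the same signals feed the integrins and the NADPH oxidase that makes superoxide during phagocytosis.

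Levels are given as CPM, the count scaled to the library's total, and as TPM, which also divides by exonic length, where genes are set against each other. Where a gene has a pair of values for a group, the first is preparation 1 and the second preparation 2. Totals were 14.1 to 26 M counts per library, preparation 2 being 1.26 to 1.42 times deeper, and 3 counts, the floor used for a gene at 0, came to 0.115 to 0.213 CPM. Libraries of a group differed by more than counting noise (chi-square per gene 2.16 to 2.78, over genes of at least 100 counts), so none was merged. That mean includes transcripts such as Ins2 that were found in preparation 1 only, so it cannot tell separate cultures from technical repeats. In the file headers the libraries of a group share a code, such as A1, and differ in a suffix, L1 or L2. Responses are counted only for members with a mean of at least 5 CPM in a group compared, and a member is called at a Benjamini-Hochberg adjusted p below 0.05 over all genes tested.

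The members did not follow the cell line labels. The 37 members together held 419.6 and 397.6 CPM in the DC2.4 Mock libraries and 455 and 443 CPM in the DC2.4 uniSTING libraries. The libraries labelled 4T1 held 13255 and 13235 CPM with Mock and 12919 and 12918 CPM with uniSTING. With vesicles, under the DC2.4 label, the sums were 18366 and 18449.9 CPM for EXOmock and 16137 and 15386 CPM for EXOuniSTING. Thus the 4 libraries with mRNA under the DC2.4 label were low, and the other 8 were high with no overlap. Epithelial markers, a list of 22 genes, ran the other way, with sums of 6161 to 6443 CPM in those 4 libraries. They summed to 172 to 174 CPM in the libraries labelled 4T1 and 137 to 153 CPM in the vesicle-treated ones. Over the groups of both these sets, St14 held 132 to 163 CPM on average per group. Groups are named by their labels below, and a direction stated for a line is that of the libraries that carry its label.

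Further cell type markers stood at unlike levels in the 8 myeloid libraries. Macrophage marker sums were 3222 to 3801 CPM and dendritic cell marker sums 202 to 300 CPM. Of 18 dendritic cell markers, Cd209a and Siglech had 0 counts in all 8 libraries, and Flt3, Xcr1 and Clec9a stood at 0 to 0.128 CPM on average per group. The class II gene H2-Aa stood at 0.229 to 0.569 CPM. The dendritic cell factor gene Zbtb46 stood at 9.17 to 11.4 CPM, and Cd74, the class II invariant chain, at 75.3 CPM in 4T1 Mock and 153 CPM in EXOmock. Cd83 stood at 70.3 and 31.4 CPM, Cd86 at 29.0 and 64.0 CPM and Clec10a at 15.2 and 12.1 CPM in the same groups. These 5 genes, Zbtb46 and Cd74 included, were the ones of the 18 that reached 5 CPM. Of 22 macrophage markers, 14 reached 5 CPM in a group of each response, led by Cd68 (1251 CPM in 4T1 Mock, 847 in EXOmock) and Lgmn (1289 and 1297 CPM). Lgmn also stood at 88.2 CPM in DC2.4 Mock. The macrophage markers Cd163, Ccr2 and Clec4a1 stood at 0 to 0.708 CPM on average per group in the myeloid libraries. Aif1, Csf3r, Ms4a7 and Cx3cr1 stood at 0.832 to 3.01 CPM there. Sums of the 20 lymphoid markers were 6.43 to 15.2 CPM, mostly Lck, those of the 17 granulocyte and mast cell markers 5.04 to 12.9 CPM and those of the 13 fibroblast and endothelial markers 31.7 to 62.1 CPM.

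Preparation 1 libraries also held traces of foreign tissue transcripts. Ins2, Sftpc and Hbb-bs, genes of pancreas, lung and red cells chosen after their values were seen, had 171 to 2117, 421 to 729 and 61 to 100 counts in preparation 1 and 0 in every preparation 2 library.

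Most members were close to absent from the 4 DC2.4 mRNA libraries. Ptprc, which encodes the pan-leukocyte phosphatase CD45 (ENSMUSG00000026395, GRCm39 chromosome 1, 137990599 to 138103446), had 8 and 0 counts in Mock and 19 and 0 in uniSTING. Spi1 (ENSMUSG00000002111, chromosome 2, 90912735 to 90946101) had 1 and 2 counts, then 5 and 1. The adaptor genes Tyrobp and Fcer1g had 3 and 4 counts in preparation 1 of Mock, 3 and 6 in preparation 1 of uniSTING, and 0 in both preparation 2 libraries. In all, 21 members had 0 counts in both preparation 2 libraries, and 18 of these had at least 1 count in preparation 1. Itgam, Syk and Fcgr1 had 0 counts in all 4 libraries. The 29 members under 5 CPM summed to 238 counts in the 2 preparation 1 libraries and to 97 in the deeper preparation 2 libraries. The preparation 1 counts of these genes go with the foreign transcripts, and the part of the latter in them was not tested.

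Csf1r, the receptor for the macrophage growth factor CSF-1 (ENSMUSG00000024621, chromosome 18, 61233670 to 61265221), had 21 and 22 counts in DC2.4 Mock and 23 and 28 in DC2.4 uniSTING, and Coro1a had 13 and 21, then 17 and 9. The low counts of both genes were thus present in both preparations. The exons of Csf1r share 873 bases, 15.1% of their length, with Hmgxb3 on the opposite strand. The counting used no strand, so reads in the shared bases are assigned to neither gene.

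A set of 7 members was well above the floor in DC2.4 Mock in both preparations. These were Lcp1, encoding the actin bundler L-plastin (117 and 111 CPM), Cyba, the membrane subunit p22phox of the NADPH oxidase (94.2 and 96.1), Plcg2, phospholipase C gamma (87.2 and 89.6), Lyn (42.3 and 40.2), Itgb2, the shared beta chain of the leukocyte integrins (26.7 and 24.8), Sirpa, the receptor for CD47 (21.1 and 19.3), and Arhgdib, an inhibitor of small GTPase cycling (16.4 and 13.9). The same genes stood higher in 4T1 Mock by 3.76-fold for Cyba, 3.79-fold for Plcg2, 3.97-fold for Lyn, 10.8-fold for Itgb2, 14.1-fold for Lcp1, 16.2-fold for Arhgdib and 43.6-fold for Sirpa. Cyba, Plcg2 and Lyn thus differed least between the lines. Lyz2 reached 5 CPM in DC2.4 uniSTING only through preparation 1 (155 and 0 counts in Mock, 290 and 0 in uniSTING). Another 8 members had 0 counts in both DC2.4 Mock libraries and at least 5 CPM in 4T1 Mock. They were at least 337-fold (Itgax) to at least 4907-fold (Adgre1) higher in 4T1 Mock, against a floor of 3 counts over the group, or 0.0759 CPM.

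In DC2.4 Mock against 4T1 Mock, all 35 members with 5 CPM were lower by edgeR, where 43.0% of all 11029 genes of that level were called lower and 46.6% higher. In EXOmock against DC2.4 Mock, which carry the same line label, all 35 were higher, where 43.3% of 11080 genes were called higher and 45.8% lower. Of these members, 7 reached 5 CPM in DC2.4 Mock itself. The others passed that level only through the group where they were high, so their direction followed from the filter in both contrasts. Fewer cells that express a gene and less RNA of it per cell cannot be told apart in such bulk libraries. The remaining members, Fgr and Cd48, were under 5 CPM everywhere. Fgr, a Src family kinase gene, had 6 to 17 counts in each of the 8 myeloid libraries and 0 to 5 in the others, and Cd48, a surface antigen of leukocytes, had 0 to 4 counts in any library and was not tested.

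**Figure D1:**
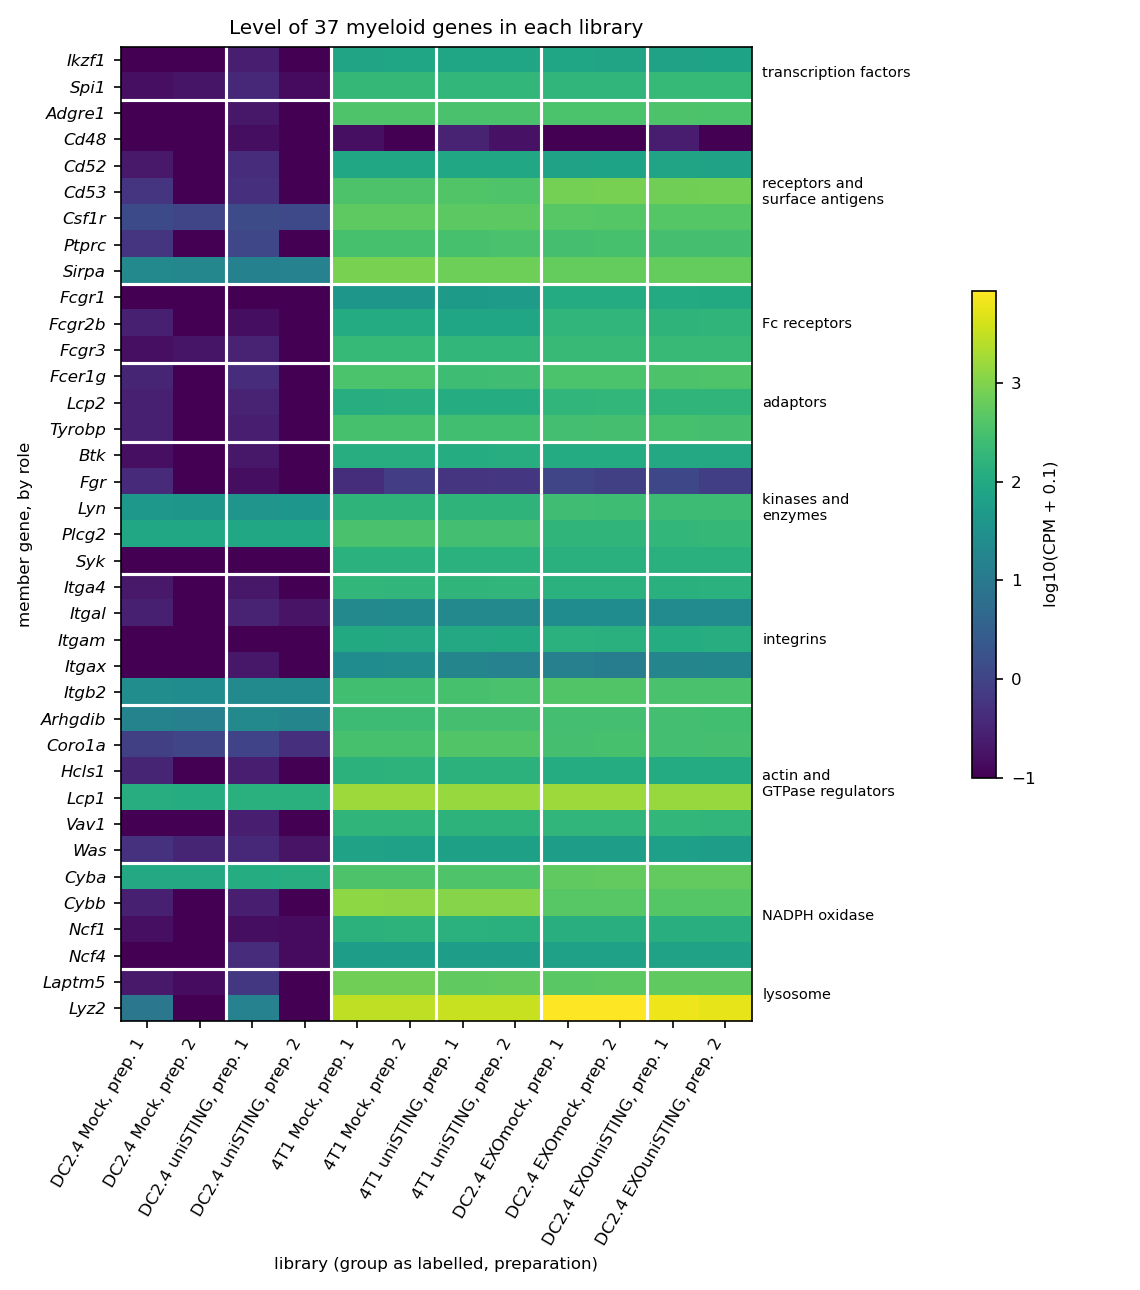
Level of each of the 37 members (rows, grouped by role) in each of the 12 libraries (columns, by labelled group and preparation), as log10 of CPM plus a pseudocount of 0.1. The 4 DC2.4 mRNA libraries are dark for 29 members, while the other 8 libraries are bright for 35, with Fgr and Cd48 as the exceptions.

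Among the myeloid libraries, the members spanned a wide range of levels. Lyz2, encoding the lysozyme of macrophages and granulocytes (ENSMUSG00000069516, chromosome 10, 117113236 to 117118226), was the most abundant in each of these 4 groups, at 6870.0 ± 16.8 TPM (SD, n = 2) in 4T1 Mock and 18971 ± 26.1 TPM in EXOmock. The adaptors followed in 4T1 Mock, with Tyrobp at 1478 ± 3.23 and Fcer1g at 1268 ± 7.2 TPM, then Cyba at 1092 ± 3.44 TPM. Cybb, the catalytic subunit gp91phox of the oxidase (665 ± 8.6 TPM), and Cd53, a leukocyte tetraspanin (662 ± 7.48 TPM), came next and did not differ beyond their spread. Spi1 stood in the middle at 223 ± 1.2 TPM, and Ptprc lower at 53.8 ± 0.311 TPM. The lowest of the 35 were the integrin alpha chains Itga4, Itgax and Itgal, with Itga4 at 41.7 ± 0.804, Itgax at 16.8 ± 0.699 and Itgal at 10.3 ± 0.316 TPM. Lyz2 alone held 21.5 and 21.6% of the members' summed CPM in 4T1 Mock and 46.9 and 46.8% in EXOmock. Without Lyz2, the sums were 10402 and 10376 CPM in 4T1 Mock against 9753 and 9812 CPM in EXOmock.

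The sequence just upstream of a gene holds sites for lineage factors, and PU.1 binds a purine-rich core often written GAGGAA. RefSeq start sites on GRCm38.p6, an older build than the files' GRCm39, gave 35 promoter windows for 27 of the 37 members. GAGGAA was searched on both strands, so as TTCCTC too, in the 250 bases before each start. It was found in 10 of the 35 windows (28.6%), from 9 genes, and in 23.3% of all 32851 windows. The longer GAGGAAGT, which contains it, was in 1 of 35 (2.86%) and in 2.44% of all. These shares lie close to the background, and a match is a description of letters, not a site. The windows below show members that were near 0 in the DC2.4 mRNA libraries and high in the others, with the match in capitals and each sequence on the strand of the gene. Fcer1g is the example with no match.

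Laptm5 (chr4:130913066-130913315, plus strand): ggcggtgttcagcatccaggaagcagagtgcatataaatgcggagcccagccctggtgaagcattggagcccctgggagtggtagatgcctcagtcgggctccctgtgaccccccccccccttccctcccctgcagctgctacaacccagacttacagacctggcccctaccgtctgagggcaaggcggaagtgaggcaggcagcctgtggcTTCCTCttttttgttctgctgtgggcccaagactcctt
Fcgr1 (chr3:96293970-96294219, minus strand): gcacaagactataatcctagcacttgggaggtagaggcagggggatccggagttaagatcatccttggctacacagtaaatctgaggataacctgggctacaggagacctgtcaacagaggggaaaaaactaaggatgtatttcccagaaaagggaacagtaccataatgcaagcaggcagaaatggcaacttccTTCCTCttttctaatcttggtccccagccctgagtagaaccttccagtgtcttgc
Itgam (chr7:128062390-128062639, plus strand): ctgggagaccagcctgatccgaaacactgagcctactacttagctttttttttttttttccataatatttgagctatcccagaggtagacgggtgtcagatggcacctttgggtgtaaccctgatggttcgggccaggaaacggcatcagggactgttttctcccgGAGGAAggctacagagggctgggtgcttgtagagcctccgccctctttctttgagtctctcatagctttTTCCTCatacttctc
Vav1 (chr17:57278850-57279099, plus strand): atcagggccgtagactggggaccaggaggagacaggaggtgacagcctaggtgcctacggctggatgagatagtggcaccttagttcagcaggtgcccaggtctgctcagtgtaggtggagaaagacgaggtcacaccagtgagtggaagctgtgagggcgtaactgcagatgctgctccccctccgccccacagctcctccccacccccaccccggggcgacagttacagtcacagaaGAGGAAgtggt
Fcer1g (chr1:171234350-171234599, minus strand): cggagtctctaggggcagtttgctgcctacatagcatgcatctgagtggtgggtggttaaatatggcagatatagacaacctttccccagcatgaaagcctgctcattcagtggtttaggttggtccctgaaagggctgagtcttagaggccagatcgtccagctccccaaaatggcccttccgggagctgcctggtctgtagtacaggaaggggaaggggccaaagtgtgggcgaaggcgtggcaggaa

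The matches began 38 bases before the start in Laptm5, 55 in Fcgr1, 84 and 15 in Itgam and 11 in Vav1, where the letters also completed GAGGAAGT. The Laptm5 and Fcgr1 matches, and the nearer match of Itgam, lay on the strand opposite to the gene.

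The 4T1 Mock and EXOmock groups are both controls with myeloid transcripts, but they differ in label and in treatment, and these cannot be told apart. Of the 35 members, 11 were higher in EXOmock, 15 lower and 9 not called, where 32.6% of 10112 genes were called higher and 37.9% lower. The median log2 difference was -0.01, beside -0.02 over all genes. The largest differences among members higher in EXOmock were those of Lyz2 (2854 and 2859 CPM against 8613 and 8638, log2 difference 1.60), of the high-affinity IgG receptor gene Fcgr1 (41.3 and 40.5 against 111 and 108 CPM, 1.42) and of Cd53 (368 and 361 against 821 and 831 CPM, 1.18). Cybb was lower in EXOmock (1232 and 1208 against 456 and 460.4 CPM; log2 difference -1.41, SE 0.04, edgeR adjusted p = 5.49e-13), as were Itgax (-1.03) and Plcg2 (-0.99). The oxidase subunits therefore went in both directions, since Cyba was higher by 0.63 and Ncf4 by 0.26 while Cybb and Ncf1 (-0.30) were lower. The integrins did too, with Itgam (0.54) and Itgb2 (0.50) higher, and Itgax and Itga4 (-0.38) lower. Ptprc was not called (310.3 and 312 against 309 and 310.3 CPM; log2 difference -0.01, SE 0.07, adjusted p = 0.958).

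**Figure D2:**
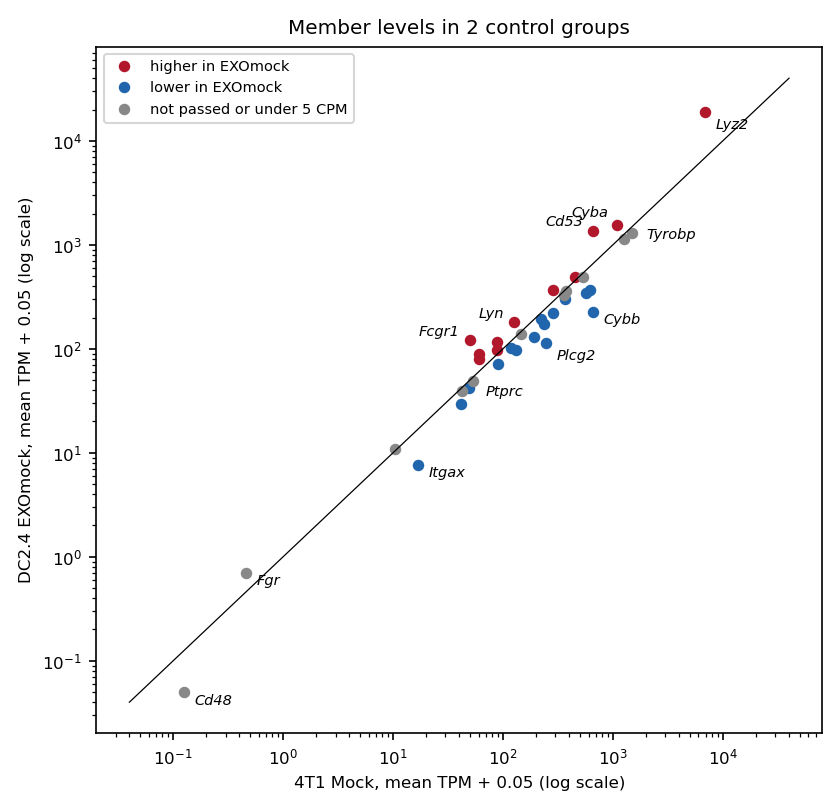
Mean TPM plus 0.05 of the 37 members in 4T1 Mock (horizontal) and in EXOmock labelled DC2.4 (vertical), both on log scales, each a mean of 2 libraries, with the line of equal levels. Red points were called higher in EXOmock (11 members), blue points lower (15), and grey points were not called or were under 5 CPM. Lyz2, Cd53 and Fcgr1 lie above the line and Cybb, Plcg2 and Itgax below it.

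The first question on treatment was how these genes moved with uniSTING mRNA in the libraries labelled 4T1. Of the 35 members, 15 fell, 4 rose and 16 were not called, where 22.0% of 10000 genes were called lower and 16.6% higher. The median was -0.08 on the log2 scale, beside -0.02 over all genes, and 0 members changed 2-fold.

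Of the Fc receptor genes, Fcgr2b, the inhibitory IgG receptor (ENSMUSG00000026656, chromosome 1, 170786186 to 170804116), stood at 109.9 and 109.7 CPM in Mock and 78.4 and 84.3 CPM in uniSTING. The groups did not overlap, and the log2 fold change was -0.46 (SE 0.05, edgeR adjusted p = 1.25e-05). The activating receptor gene Fcgr3 fell by 0.21, whereas Fcgr1 rose from 41.3 and 40.5 CPM to 48.7 and 51.2 CPM (log2 fold change 0.27, SE 0.05, adjusted p = 0.00189). Fcgr2b and Fcgr3 share stretches of like sequence, and reads that map to both would be missing from uniquely mapped counts.

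The adaptor chain gene Fcer1g (ENSMUSG00000058715, chromosome 1, 171057141 to 171061934) fell from 352 and 349 CPM to 256 and 261 CPM (log2 fold change -0.46, SE 0.04, edgeR adjusted p = 4.75e-06). Tyrobp, encoding the adaptor DAP12 (ENSMUSG00000030579, chromosome 7, 30113185 to 30117010), fell from 311 and 312 CPM to 277 and 276 CPM (-0.20, SE 0.04, adjusted p = 0.00106). Both adaptors were thus lower in each uniSTING library, Fcer1g by the larger log2 change. The adaptor gene Lcp2, encoding SLP-76, stood at 119 and 128 against 116 and 114 CPM and was not called (-0.13, adjusted p = 0.0779). It passed with the preparation as a block (adjusted p = 0.0387), with DESeq2 (0.0463), with limma-voom (0.0381), without a filter on low counts (0.0042) and with only the libraries compared (0.036).

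Downstream of the adaptors, Plcg2 fell from 334 and 337 to 289 and 291 CPM (log2 fold change -0.24, edgeR adjusted p = 8.13e-06), and Vav1, an activator of Rac GTPases, fell by 0.17. The kinase genes were not called, with Syk at 145 and 145 against 144 and 140.5 CPM, Btk at 119.8 and 117 against 116 and 117 CPM and Lyn at 166 and 161 against 165 and 159 CPM. Their log2 fold changes were -0.06 (SE 0.03), -0.05 (SE 0.04) and -0.04 (SE 0.03).

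Among surface receptors, Sirpa fell from 883 and 871 to 694 and 710.0 CPM (log2 fold change -0.35, SE 0.02, edgeR adjusted p = 2.51e-07). Adgre1, encoding the macrophage antigen F4/80, fell by 0.19, from 371 and 373 to 335 and 333 CPM. Csf1r moved less, from 518 and 525 to 498 and 492 CPM (-0.10, adjusted p = 0.00271). Ptprc stood at 310.3 and 312 CPM in Mock and 322 and 327 CPM in uniSTING (log2 fold change 0.03, SE 0.07, adjusted p = 0.785). Cd53 and Cd52 were not called either (0.04 and -0.05).

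The integrins went in different directions. Itgax, the alpha chain CD11c (ENSMUSG00000030789, chromosome 7, 127728719 to 127749829), fell from 24.8 and 26.3 CPM to 17.4 and 15.5 CPM (log2 fold change -0.67, SE 0.12, edgeR adjusted p = 0.00104), the largest fall of a member here. Itgb2 (ENSMUSG00000000290, chromosome 10, 77366086 to 77401542) rose from 278 and 276 to 322 and 326 CPM (0.20, SE 0.02, adjusted p = 4.39e-05). Itgam, the alpha chain CD11b that lies near Itgax on chromosome 7 (127661812 to 127717663), stood at 98.2 and 93.4 against 97.1 and 98.6 CPM, with overlapping groups (0.01, SE 0.04, adjusted p = 0.948). The exons of Itgam share 3450 bases, 68.7% of their length, with the same-strand gene model Gm49368, which had at most 3 counts in a library, and reads there are assigned to neither gene, so the level of Itgam is understated. Itga4 was called (-0.12, adjusted p = 0.0348), but not without 4T1 Mock replicate 1 or 2, 4T1 uniSTING replicate 1 or EXOmock replicate 1 (adjusted p 0.149, 0.0912, 0.255 and 0.0622).

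Among actin and GTPase regulators, Coro1a and Arhgdib rose while Lcp1 and Vav1 fell. Coro1a, encoding coronin of leukocytes (ENSMUSG00000030707, chromosome 7, 126298945 to 126306959), went from 318 and 309.9 CPM to 402 and 399 CPM (log2 fold change 0.32, SE 0.03, edgeR adjusted p = 1.21e-05). Arhgdib went from 246 and 241 to 303 and 301 CPM (0.28, SE 0.04, adjusted p = 6.34e-05). Lcp1 went the other way, from 1610.0 and 1605 to 1468 and 1469.5 CPM (-0.16). None of these groups overlapped. Was and Hcls1, both regulators of actin branching, were not called (-0.11 and -0.08).

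Of the oxidase subunits, Cybb fell from 1232 and 1208 to 1100.0 and 1090.1 CPM (log2 fold change -0.18, edgeR adjusted p = 0.00118) and the cytosolic organiser gene Ncf1 fell by 0.17. Cyba and Ncf4 were not called (0.02 and -0.01). Ncf1 shares 11.1% of its exonic length with Gtf2ird2 on the opposite strand.

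Laptm5, a lysosomal membrane protein of blood cells (ENSMUSG00000028581, chromosome 4, 130640436 to 130663452), fell from 729.9 and 745 CPM to 542 and 558 CPM (log2 fold change -0.45, SE 0.05, edgeR adjusted p = 6.61e-06). Lyz2 stood higher in both uniSTING libraries (2854 and 2859 against 3281 and 3264 CPM) but was not called (0.17, SE 0.25, adjusted p = 0.673). In a fit of only the 4 libraries compared it was (0.18, adjusted p = 3.44e-08). Lyz2 also passed with limma-voom (adjusted p = 0.038) and without a filter on low counts (adjusted p = 4.12e-15), but not with DESeq2. The large SE in the joint fit goes with the 155 and 290 counts of Lyz2 in preparation 1 of the DC2.4 mRNA groups beside 0 in preparation 2.

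The transcription factor genes were not called, with Spi1 at 189.6 and 191 against 188 and 184 CPM (log2 fold change -0.06, SE 0.03, edgeR adjusted p = 0.147) and Ikzf1, a zinc finger factor of blood cells, at 77.5 and 78.4 against 83.3 and 81.2 CPM (0.05, adjusted p = 0.537). By role, the calls in uniSTING were 2 lower and 1 higher of 3 Fc receptors, 2 lower of 3 adaptors, 3 lower of 6 other receptors and surface antigens, 2 lower and 1 higher of 5 integrins, 2 lower and 2 higher of 6 actin and GTPase regulators, 2 lower of 4 oxidase subunits, 1 lower of 4 kinases and enzymes, 1 lower of 2 lysosomal proteins and 0 of 2 transcription factors. Each of the 19 calls had the same direction within preparation 1 and within preparation 2. These are the libraries that gave the calls, so this is no separate check. Against a minimum change of 1.2-fold in edgeR, 5 falls were still called (Fcer1g, Laptm5, Fcgr2b, Sirpa and Itgax) and 0 rises, with 1 rise at an unadjusted p below 0.05. The share of all genes called was not computed at this minimum.

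Other genes of the same pathways were read from lists chosen with results of these data known. Of 40 further genes of ITAM and Src-Syk signalling, 35 reached 5 CPM in the 4T1 comparison, 17 were lower and 3 higher, and their median log2 fold change was -0.20 beside -0.02 over all genes. The lower ones included the adaptor gene Blnk (159 against 112 CPM on average, log2 fold change -0.53, edgeR adjusted p = 1.3e-07). The receptor gene Cd33 was lower too (110 against 74.6 CPM, -0.58), and the higher ones included Cd300lf (0.28) and Dok2 (0.21). Of 15 further myeloid transcription factor genes with 5 CPM, 8 were lower, led by Maf (-0.76) and Lmo2 (-0.38), and 1 higher. Their median was -0.14. Of 5 partners of the oxidase, Rac2 (-0.20) and the proton channel gene Hvcn1 (-0.39) were lower and 0 higher. Of 19 actin and integrin partners, 4 were higher, among them Itgb7 (0.54) and Pfn1 (0.15), and 7 lower, among them Wipf1 (-0.25) and Itgb1 (-0.12).

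Cell type markers moved in the same libraries. Of 14 macrophage markers, 3 were higher, among them Cd14 (log2 fold change 0.35) and Msr1 (0.28), and 5 lower, among them Lgmn (-0.23), and the list summed to 3738 to 3756 CPM in Mock against 3222 to 3233 CPM in uniSTING. Of 5 dendritic cell markers, Cd74 (0.48) and the costimulatory gene Cd86 (0.23) were higher and Cd83 (-0.62) and Clec10a (-0.34) lower. Epithelial marker sums were 172 to 173 CPM in Mock and 174 CPM in both uniSTING libraries. The part of these shifts in the members' changes was not tested.

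**Figure D3:**
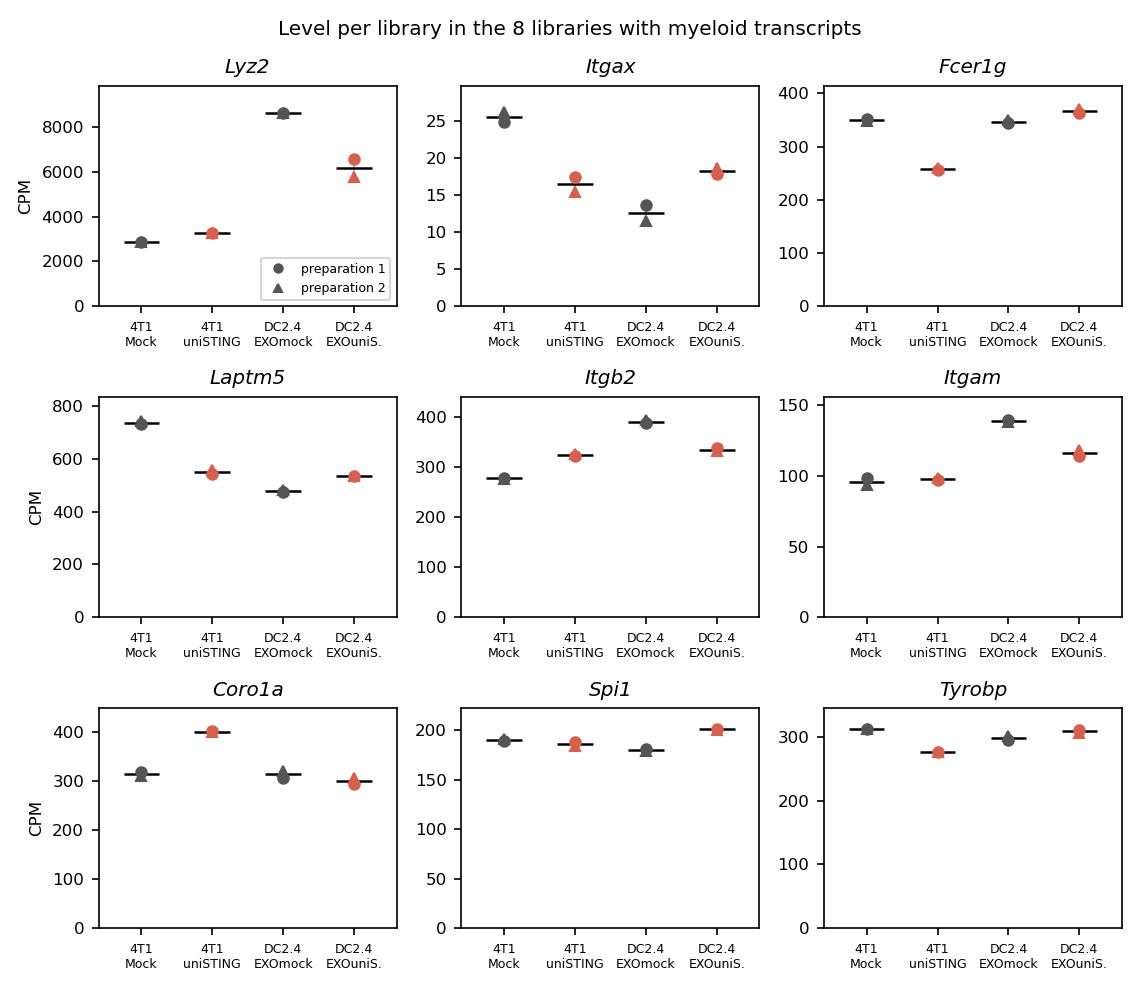
CPM of 9 members in each of the 8 libraries labelled 4T1 or treated with vesicles, with a separate linear axis per gene. Circles are preparation 1, triangles preparation 2 and the bar is the mean of 2 libraries. Fcer1g, Laptm5 and Itgax are lower in 4T1 uniSTING than in 4T1 Mock, Coro1a and Itgb2 are higher there, and Lyz2 in EXOuniSTING is the group whose 2 libraries stand furthest apart (6545 and 5769 CPM).

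The next question was how these genes responded to vesicles from uniSTING-treated cells. In EXOuniSTING against EXOmock, 4 of the 35 members rose, 4 fell and 27 were not called, where 10.7% of 10101 genes were called higher and 11.1% lower. The median absolute log2 fold change was 0.07 for the members and 0.10 for all genes, and 0 members changed 2-fold. The rises were Itgax, Plcg2, Laptm5 and Spi1, and the falls Itgam, Btk, Itgb2 and Lcp1. With limma-voom, 8 members were lower and 4 higher, and in a fit of only the 4 libraries compared, 8 were lower and 6 higher. The share of all genes called was not computed under these settings, so these counts have no background beside them.

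Spi1 stood at 181 and 179 CPM with EXOmock, against 201 and 201 CPM with EXOuniSTING, with no overlap (log2 fold change 0.16, SE 0.03, edgeR adjusted p = 0.00387). Itgax went from 13.7 and 11.5 CPM to 17.8 and 18.6 CPM (0.54, SE 0.13, adjusted p = 0.0145). That call was lost without EXOmock replicate 2 (0.41, adjusted p = 0.14) or EXOuniSTING replicate 2 (0.51, adjusted p = 0.0849). Plcg2 went from 172 and 166 to 189 and 194 CPM (0.18, SE 0.03, adjusted p = 0.000694). Laptm5 went from 473 and 482 to 534 and 536 CPM (0.16, SE 0.05, adjusted p = 0.0309), and leaving out any of the 4 libraries gave adjusted p-values of 0.0766 to 0.149.

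RNA of Itgam and Itgb2, which encode the integrin chains CD11b and CD18 that pair as a complement receptor, fell for both genes. Itgam (ENSMUSG00000030786) went from 139 and 138 to 114 and 118 CPM (log2 fold change -0.26, SE 0.04, edgeR adjusted p = 0.00068). Itgb2 went from 387 and 393 to 336 and 331 CPM (-0.23, SE 0.02, adjusted p = 4.4e-05). The groups did not overlap for either. The kinase gene Btk (ENSMUSG00000031264, chromosome X, 133443085 to 133484319) fell from 109 and 110.1 to 94.2 and 93.5 CPM (-0.23, adjusted p = 0.00351). Lcp1 fell from 1609 and 1609 to 1524 and 1513 CPM (-0.08, adjusted p = 0.00922), with adjusted p-values of 0.0535 and 0.0606 without EXOmock replicate 2 or EXOuniSTING replicate 2.

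The Fc receptors and adaptors were not called. Fcer1g stood at 344 and 349 against 363 and 370.5 CPM (log2 fold change 0.08, SE 0.05, edgeR adjusted p = 0.255) and Tyrobp at 295 and 301 against 311 and 306 CPM (0.05, adjusted p = 0.437). The log2 fold changes of Fcgr1, Fcgr2b and Fcgr3 were -0.11, -0.11 and 0.03. In a fit of only the 4 libraries compared, Fcer1g (adjusted p = 0.0368) and Fcgr2b (adjusted p = 0.0216) did pass. Csf1r stood at 443 and 438 against 437 and 436 CPM (-0.01, SE 0.02), Ptprc at 309 and 310.3 against 305 and 302 CPM (-0.03, SE 0.07), and the 4 oxidase subunits between -0.08 (Cybb) and 0.10 (Ncf1).

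Lyz2 had the lowest fold change of all members without being called. It stood at 8613 and 8638 CPM with EXOmock, against 6545 and 5769 CPM with EXOuniSTING (log2 fold change -0.49, SE 0.24, edgeR adjusted p = 0.206). Both EXOuniSTING libraries were below both controls but differed from each other by more than the controls did. The large SE of the joint fit goes with Lyz2 in the DC2.4 mRNA groups, as in the 4T1 response. There Lyz2 had 155 and 290 counts in preparation 1 beside 0 in preparation 2. Lyz2 did pass with limma-voom (-0.52, adjusted p = 2.69e-07) and without a filter on low counts (-0.48, adjusted p = 7.46e-133), but not with DESeq2. In a fit of only the 4 libraries compared, the value was -0.49 with an SE of 0.0363 and an edgeR adjusted p of 2.44e-06. Cd53 (821 and 831 against 749 and 759.8 CPM, -0.13, adjusted p = 0.0981) also passed in that fit (adjusted p = 0.000254).

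Of the 36 further ITAM and Src-Syk genes with 5 CPM, 7 were higher and 6 lower, with a median of 0.03. Pik3r5 (0.35) and Trem2 (0.29), a receptor that signals through Tyrobp and stands on the macrophage list as well, led the rises, and Lilrb4a (-0.22) and Cbl (-0.20) the falls. Of 15 further transcription factor genes, 3 were higher, among them Id2 (0.40) and Lmo2 (0.24), and 0 lower. Of 19 actin and integrin partners, Arpc1b (0.09) and Itga5 (0.20) were higher and 7 lower, among them Itga6 (-0.28) and Plek (-0.18), and of 5 oxidase partners 1 was higher, Rac2 (0.14), and 1 lower. Among 14 macrophage markers, 3 were higher, among them Trem2 and Cd68 (0.19), and 3 lower, among them Cd14 (-0.39) and Marco (-0.51). Cd83 (0.43) was the dendritic cell marker called, of 5. The macrophage list summed to 3664 to 3687 CPM in EXOmock and 3797 to 3801 CPM in EXOuniSTING, and the part of these shifts in the members' changes was not tested.

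**Figure D4:**
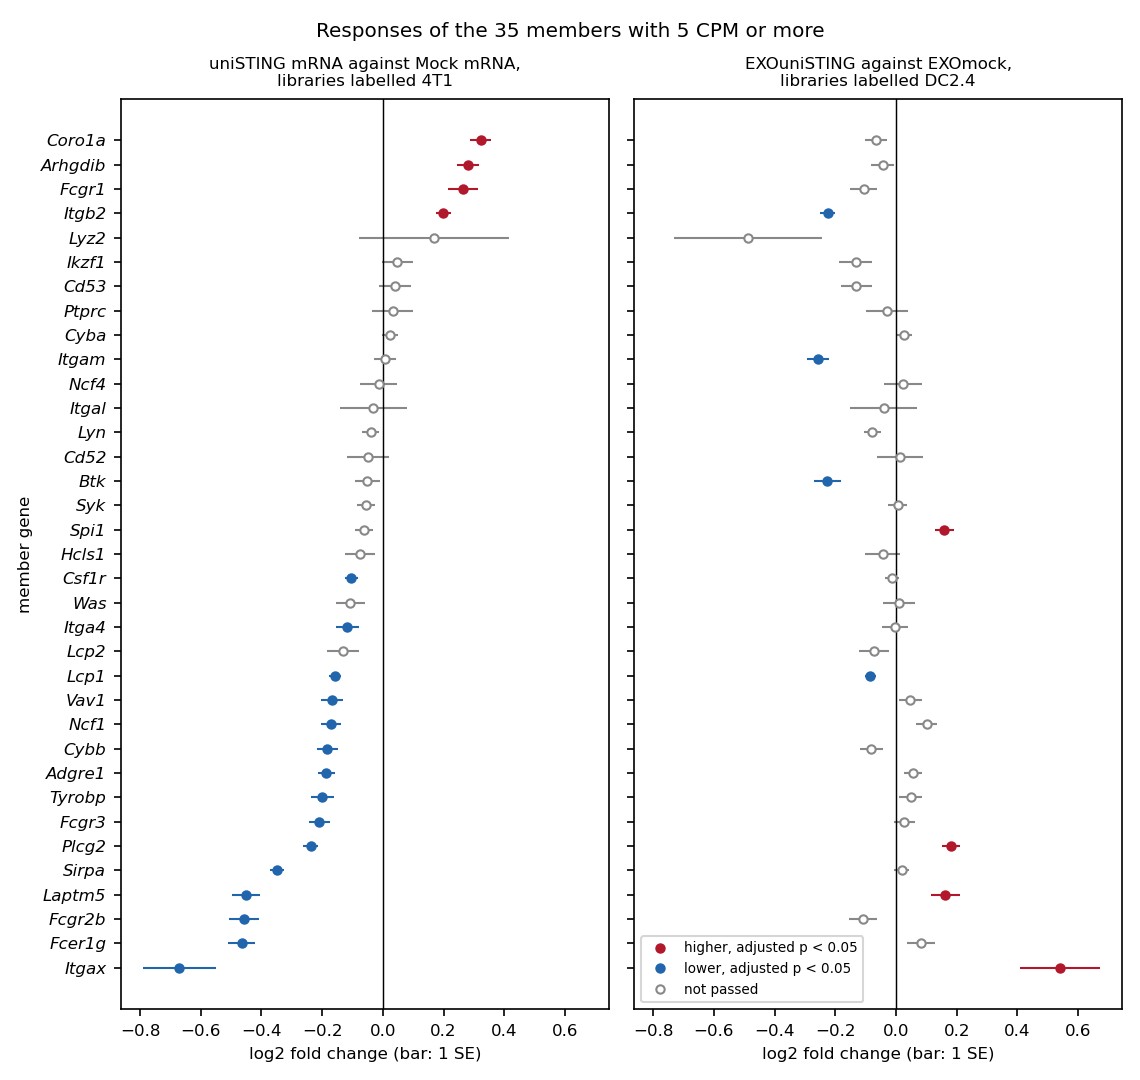
Log2 fold change of the 35 members with 5 CPM, in 4T1 uniSTING against 4T1 Mock (left) and in EXOuniSTING against EXOmock (right), with bars of 1 SE from the joint fit of 12 libraries. Coloured points passed an adjusted p of 0.05 (19 members on the left, 8 on the right) and grey points did not. Itgax, Laptm5 and Plcg2 lie left of 0 in the first panel and right of 0 in the second, Itgb2 the reverse.

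The response of the 4T1 mRNA libraries and that of the vesicle libraries share no control, so their difference was tested directly. It was called for 19 of the 35 members, 13 lower and 6 higher in the 4T1 mRNA response, where 20.4% of 10215 genes were called lower and 16.9% higher. Among the lower ones, Plcg2 differed by -0.42 (SE 0.04, edgeR adjusted p = 2.5e-06), Sirpa by -0.37 (SE 0.03, adjusted p = 4.3e-06) and Laptm5 by -0.61 (SE 0.07, adjusted p = 1.12e-05). Among the higher ones, Itgb2 differed by 0.42 (SE 0.04, adjusted p = 1.36e-06), Coro1a by 0.39 (SE 0.05, adjusted p = 6.55e-05) and Arhgdib by 0.32 (SE 0.05, adjusted p = 0.000372). Fcer1g (-0.55), Tyrobp (-0.25), Spi1 (-0.22) and Csf1r (-0.09) were also called, and Ptprc (0.06, adjusted p = 0.7) was not.

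Set side by side, 3 of the 15 members that fell with mRNA rose with vesicles (Itgax, Laptm5 and Plcg2), 1 fell (Lcp1) and 11 were not called there. Of the 4 that rose with mRNA, Itgb2 fell with vesicles and 3 were not called. Of the 16 not called with mRNA, Spi1 rose with vesicles, Itgam and Btk fell and 13 were not called in either. The vesicle calls of Itgax, Laptm5 and Lcp1 were lost when single libraries were left out, as given above. The same crossing of calls over all genes was not made, so these counts have no background beside them.

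The DC2.4 mRNA libraries allowed a response for 8 members only. Of these, 3 rose, 2 fell and 3 were not called, where 27.0% of 10140 genes were called higher and 28.1% lower. The rises were Arhgdib, Cyba and Lcp1 and the falls Sirpa and Itgb2.

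Sirpa stood at 21.1 and 19.3 CPM in Mock and 14.4 and 15.4 CPM in uniSTING (log2 fold change -0.41, SE 0.06, edgeR adjusted p = 6.45e-05). Cyba went from 94.2 and 96.1 to 113 and 121 CPM (0.32, SE 0.03, adjusted p = 3.54e-06). Lcp1 went from 117 and 111 to 135 and 138 CPM (0.28, SE 0.02, adjusted p = 5.76e-07). The groups did not overlap for these genes. Itgb2 went from 26.7 and 24.8 to 22.1 and 21.6 CPM (-0.21, adjusted p = 0.00396), and its call was lost without DC2.4 Mock replicate 1 (adjusted p = 0.0921) or DC2.4 uniSTING replicate 2 (adjusted p = 0.0627). Arhgdib went from 16.4 and 13.9 to 21.2 and 17.7 CPM (0.38, adjusted p = 0.0028), a call lost without DC2.4 Mock replicate 2 (0.25, adjusted p = 0.0699). Lyn (-0.09) and Plcg2 (0.02) were not called, nor was Lyz2, which had counts in preparation 1 only (8.86 and 0 against 15.4 and 0 CPM).

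Of the further lists, 11 ITAM and Src-Syk genes had 5 CPM there, with Skap2 (0.28) and Ptpn22 (0.51) higher and 3 lower, among them Cbl (-1.10) and Sos1 (-0.33). Of 14 actin and integrin partners, 4 were higher, among them Capg (0.43) and Arpc1b (0.16), and 7 lower, among them Tln1, which encodes the integrin activator talin (451 against 223 CPM), and Itgav (-0.42). Of 9 transcription factor genes, Id2 (1.24) and Irf8 (0.29) were higher and 4 lower, among them Zeb2 (-0.70) and Runx1 (-0.37). The oxidase partners had 2 genes with 5 CPM and 0 calls by edgeR. The 3 macrophage markers and the 1 dendritic cell marker, Cd74 (0.83), that reached 5 CPM were all higher.

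The uniSTING responses of Sirpa and Arhgdib had the same sign under both line labels, at -0.41 and -0.35 for Sirpa and 0.38 and 0.28 for Arhgdib in DC2.4 and 4T1. The responses of Itgb2 and Lcp1 had opposite signs, at -0.21 and 0.20 for Itgb2 and at 0.28 and -0.16 for Lcp1. No control library is shared between these comparisons.

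**Figure D5:**
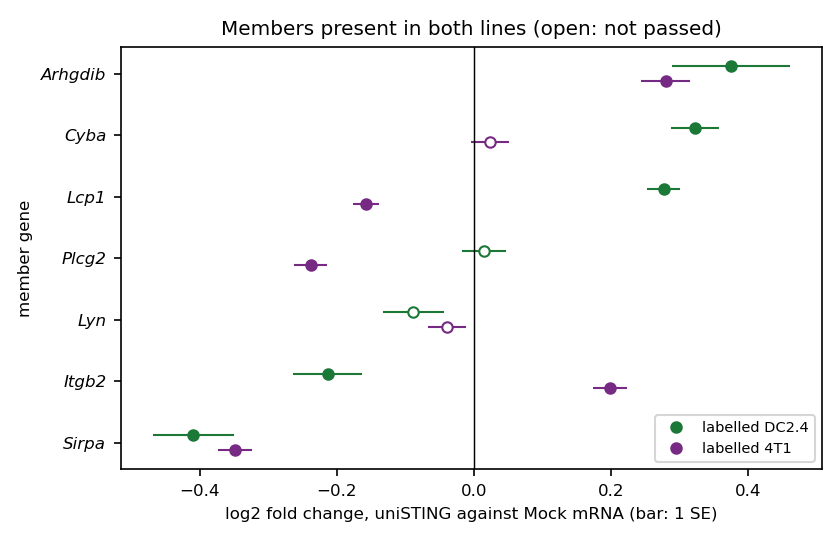
Log2 fold change with uniSTING mRNA of the 7 members with 5 CPM in both preparations of both lines, in libraries labelled DC2.4 and in libraries labelled 4T1, with bars of 1 SE from the joint fit. Sirpa is below 0 and Arhgdib above 0 under both labels, while Itgb2 and Lcp1 lie on opposite sides of 0.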

How the data were processed

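Counts per gene were deposited for 12 RNA-seq libraries made from 1.0 µg of total RNA each. The authors aligned reads with HISAT2 to GRCm39, per the submitters' processing notes, and counted uniquely mapped read pairs over exons with featureCounts of Subread 2.0.1 and no strand option, per the file headers. Symbols were read from the name table supplied with the data and were found for 52093 of the 53647 gene identifiers.

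Members and gene lists were chosen with earlier results of these data known. Counts were fitted with edgeR 4.0.16 in R 4.3.3 (quasi-likelihood F test, TMM factors, 1 mean per group, all 12 libraries), on the 14863 genes kept by its filter on low counts. P-values were Benjamini-Hochberg adjusted over those genes, with a threshold of 0.05, and genes varied between libraries of a group with a common coefficient of 3.05%. The SE of a log2 fold change was derived from its F value. The expressed-gene minimum for a response was 5 CPM. Depth was 14.1 to 26 M counts with 17174 to 18661 genes detected. Floors cover counting error only, while the SEs include variation between libraries.

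The text names Ptprc, Spi1, Tyrobp, Fcer1g and Csf1r, up to 5 rises and 5 falls per response, for a difference of responses the 3 members of lowest adjusted p among those higher and among those lower, and up to 2 genes per direction of each further list. Other members are given by role. Some genes of the further lists are counted but not reported here by name.

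Preparation numbers pair the libraries: deviations from group means of libraries with the same number correlated at 0.316 to 0.578 (median 0.41) over all 15 pairs of groups, a pairing that comes from the data and from the preparation numbers in the labels. Other settings tried were limma-voom (limma 3.58.1), DESeq2 1.42.0, its size factors within edgeR, no filter, only the libraries compared, the preparation as a block, a minimum of 1.2-fold, each library left out, and, chosen after seeing the data, ratios within each preparation. The script steps were tested on simulated data. Promoter windows came from RefSeq (GRCm38.p6), and gene coordinates from the files (GRCm39).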

Additional observations from a re-analysis of the deposited data

Results flagged for a closer look

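For 4 members the response to uniSTING mRNA differed between libraries labelled DC2.4 and libraries labelled 4T1, by a test of the difference itself that was chosen after seeing the data. It covered the 8 members with 5 CPM under both labels, of which 3 were called higher and 1 lower in DC2.4, where 22.7% of 8944 genes were called higher and 22.0% lower. Itgb2 differed by -0.41 (SE 0.06, edgeR adjusted p = 7.03e-05), from log2 fold changes of -0.21 in DC2.4 and 0.20 in 4T1. Lcp1 differed by 0.43 (SE 0.03, edgeR adjusted p = 1.45e-07), from 0.28 and -0.16. Cyba differed by 0.30 (SE 0.04, edgeR adjusted p = 0.000133), from 0.32 and 0.02. Plcg2 differed by 0.25 (SE 0.04, edgeR adjusted p = 0.000254), from 0.02 and -0.24. For Sirpa (-0.06, SE 0.06), Lyn (-0.05, SE 0.05), Arhgdib (0.10, SE 0.09) and Lyz2 (0.61, SE 1.09) no difference was called.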

How the results depend on the processing

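With a minimum of 1.2-fold, 0 members were higher and 0 lower in the DC2.4 mRNA response (2 and 1 at an unadjusted p below 0.05), 0 higher and 5 lower in the 4T1 response (1 and 5 unadjusted), 0 and 0 in the vesicle response (1 and 0 unadjusted), 9 higher and 7 lower in EXOmock against 4T1 Mock, and 2 higher and 5 lower in the difference of the 4T1 and vesicle responses. With vesicles, 8 members were lower and 4 higher under limma-voom, and 8 lower and 6 higher with only the libraries compared. The cause was not tested. Shares over all genes were computed for the main fit only, so none stands beside the member counts of this section. Leaving out each library in turn gave 2 to 4 higher and 1 to 3 lower members in the DC2.4 mRNA response, 4 higher and 14 to 16 lower in 4T1, 2 to 4 higher and 3 to 5 lower with vesicles, 10 to 12 higher and 12 to 15 lower in EXOmock against 4T1 Mock, 5 to 8 higher and 12 to 14 lower in the difference of responses, and 35 in both contrasts with DC2.4 Mock. The 2 rises with vesicles came without EXOmock replicate 2 or EXOuniSTING replicate 2, and the 1 fall in DC2.4 without Mock replicate 1 or uniSTING replicate 2. Lyz2 in DC2.4 reversed to -9.37 (edgeR adjusted p = 0.0483) without uniSTING replicate 1, and its range over all leave-outs was -9.37 to 10.16. Both extremes leave a group at 0 counts, so these fitted values are no measure of size. With the replicate block, Lcp2 passed in the 4T1 response (adjusted p = 0.0387), and no other call of a member in the 3 responses changed. Within each preparation, all called members kept their direction, in the same libraries that gave the calls.

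Groups of 2 libraries limit all tests, a library left alone being assumed to vary like the others, and changes of members near the floor of 3 counts were not detectable at this depth.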
